A study of Mus musculus with 12 samples.

Results

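The liver X receptor (LXR) genes examined here are the receptors Nr1h2 and Nr1h3 and the 4 LXR target genes Abcg1, Abca1, Mylip and Smpdl3a, 6 genes of the 54532 listed for each library. They were selected on measured FPKM values of these same libraries, so their levels and differences are given as a description and support no test. Of the 6, 5 had a mean of at least 1 FPKM over the 12 libraries and were carried into the fit across 11550 genes; Nr1h3 did not.

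RNA-seq was performed on mouse primary CD8+ T cells, the cytotoxic T cells of the immune system, which were wild type before knockdown. After activation they were given a small interfering RNA by the Accell delivery method. In the paper's methods for it, cells were cultured in Click's or another medium and then incubated in a delivery medium with less serum. The siNTC groups received a non-targeting control siRNA and the siCreb1 groups an siRNA against Creb1, which encodes the cAMP-responsive transcription factor CREB. Cells of each kind were then treated for 24 h with the vehicle DMSO or with trans-vaccenic acid (TVA), a trans fatty acid of ruminant milk and meat, giving 4 groups of 3 libraries: siNTC, siNTC plus TVA, siCreb1 and siCreb1 plus TVA. The comparisons ask how TVA altered transcript levels, and whether it did so in the same way when Creb1 was knocked down. Nothing in the labels says that the 3 libraries of a group came from separate animals or cultures, so p-values measure the spread between these samples, which may be technical. Libraries held from 16660234 to 24602484 reads, as recovered from the deposited FPKM values (fragments mapped to a gene, scaled to its length and to the depth of the library).

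LXRs are nuclear receptors that pair with retinoid X receptors (RXR) and switch on their targets when oxysterols, oxidised forms of cholesterol, bind to them. Abcg1 and Abca1 export cholesterol from the cell, Mylip (also called IDOL) marks lipoprotein receptors for degradation, and Smpdl3a is a phosphodiesterase induced by LXR ligands. In T cells LXR signalling is known for limiting proliferation by holding down cellular sterol, and cholesterol synthesis is controlled in the opposite sense by the SREBP2 transcription factor, which is active when sterol is low.

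The knockdown was seen in every library. Creb1 was at 11, 10.3 and 10.5 FPKM in siNTC cells and at 11, 12 and 12.4 FPKM in siNTC plus TVA cells. It was at 1.19, 1.29 and 1.77 FPKM in siCreb1 cells and at 1.81, 1.67 and 1.17 FPKM in siCreb1 plus TVA cells. All 6 siCreb1 libraries lay below all 6 siNTC libraries (two-sided exact permutation test over the 12 libraries, p = 0.00216, the smallest that 924 divisions of them can give), and the siCreb1 mean was 13.4% of the siNTC mean without TVA and 13.1% with it.

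The cells carried the markers of their label. All 8 CD8 T cell markers had a mean of at least 1 FPKM, with Cd8b1 the most abundant at 887 FPKM, and their summed level ran from 2302 to 2324 FPKM in siNTC, 2274 to 2294 in siNTC plus TVA, 2166 to 2181 in siCreb1 and 2175 to 2199 in siCreb1 plus TVA libraries. Of 4 CD4 T cell markers the most abundant was Foxp3 at a mean of 2.61 FPKM, none of 6 dendritic cell markers reached a mean of 1 FPKM, and of 6 B cell markers Cd79b was the most abundant at 9.63 FPKM. All 4 NK cell markers reached 1 FPKM, led at 29.6 FPKM by Eomes, a transcription factor that activated CD8+ T cells also express. The summed NK cell list ran from 32.8 to 34.7 FPKM in siNTC and 35.7 to 36.8 in siNTC plus TVA libraries, without overlap. It ran from 33.7 to 36.4 FPKM in siCreb1 and 35.4 to 36.6 in siCreb1 plus TVA libraries. Macrophages are a cell type in which LXR targets are well known, and of 14 macrophage and monocyte markers 3 reached 1 FPKM: Ly6c2 at a mean of 132 FPKM, which activated CD8+ T cells also express, Lyz2 at 6.19 and Cd68 at 3.02. The summed macrophage and monocyte list ran from 120.3 to 135 FPKM in siNTC, 137 to 146 in siNTC plus TVA, 139 to 152 in siCreb1 and 145 to 156 in siCreb1 plus TVA libraries, while its defining markers Csf1r and Adgre1 had means of 0.119 and 0.0583 FPKM. Ly6c2 rose with knockdown without TVA (0.17, SE 0.05; limma adjusted p = 0.0493) and Lyz2 with knockdown in TVA-treated cells (0.40, SE 0.11; limma adjusted p = 0.0478).

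At the promoters, sequence was at hand in the RefSeq table (build GRCm38.p6) for 4 of the 6 genes, Abca1, Mylip, Nr1h2 and Nr1h3, in windows from 250 bases before to 50 bases after the start of transcription. Those of the targets Abca1 and Mylip and of the more abundant receptor gene, Nr1h2, are shown for the 250 bases before the start, 5′ to 3′ on the strand of the gene: Abca1 from chr4:53159896-53160145 on the minus strand, Mylip from chr13:45389492-45389741 on the plus strand and Nr1h2 from chr7:44553966-44554215 on the minus strand. Capitals mark the closest match to the LXR element described after them.
Abca1: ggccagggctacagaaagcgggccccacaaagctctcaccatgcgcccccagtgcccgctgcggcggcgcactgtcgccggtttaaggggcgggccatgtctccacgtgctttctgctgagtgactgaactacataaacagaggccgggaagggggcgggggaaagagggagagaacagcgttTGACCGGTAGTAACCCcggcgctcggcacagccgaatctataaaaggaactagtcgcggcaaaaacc
Mylip: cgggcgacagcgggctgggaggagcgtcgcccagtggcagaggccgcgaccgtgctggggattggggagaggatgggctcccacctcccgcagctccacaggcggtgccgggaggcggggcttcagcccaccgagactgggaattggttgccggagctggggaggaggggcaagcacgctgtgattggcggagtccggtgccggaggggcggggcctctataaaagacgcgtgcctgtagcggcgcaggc
Nr1h2: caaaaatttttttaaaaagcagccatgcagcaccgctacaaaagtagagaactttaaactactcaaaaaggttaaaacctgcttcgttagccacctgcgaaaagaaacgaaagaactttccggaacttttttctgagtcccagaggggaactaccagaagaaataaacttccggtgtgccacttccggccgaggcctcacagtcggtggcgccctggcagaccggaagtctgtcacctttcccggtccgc
The LXR element searched, called DR4, is AGGTCA, then any 4 bases, then AGGTCA again, on either strand. With at most 2 mismatches over its 12 fixed letters it was in none of the 4 genes' windows and in 3.02% of 32851 promoter windows of the table. With at most 3 mismatches it was in 21.9% of the windows and matched Abca1, where the capitals stand, on the strand opposite to the gene. The single repeat AGGTCA, which is part of DR4, was in none of the 4 genes' windows against 16.3% of all windows. Neither was TGACGTCA, the full CREB site, which 1.79% of windows held. Its core TGACG, found in 20.8% of windows and contained in the full site, occurred in the Nr1h2 window at base 14 after the start. A match is a description of letters, and its absence says only that these letters are not in the window.

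In level the 6 genes kept the same order in 12 of 12 libraries. Nr1h2 was the most abundant at a mean of 38.9 FPKM, followed by Smpdl3a at 29.6, Abcg1 at 20.4, Mylip at 13.1, Abca1 at 1.22 and Nr1h3 at 0.602 FPKM. Over all libraries the ranges of Nr1h2 (35.3 to 43.0 FPKM) and Smpdl3a (27.1 to 34.3) did not meet, while those of Smpdl3a and Abcg1 (14.6 to 27.2), of Abcg1 and Mylip (10.7 to 16.5), and of Abca1 (0.848 to 1.57) and Nr1h3 (0.318 to 0.917) overlapped. The highest library was 1.22 times the lowest for Nr1h2 and 1.27 times for Smpdl3a, against 1.55 times for Mylip, 1.86 times for Abcg1 and for Abca1, and 2.89 times for Nr1h3. In these bulk libraries, fewer cells of a type and less RNA per cell cannot be told apart.

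Of the receptors, Nr1h2 encodes LXRβ, the form found in most tissues. Its FPKM was 41.3, 43.0 and 40.0 in siNTC, 35.3, 38.9 and 38.2 in siNTC plus TVA, 38.5, 37.3 and 41.0 in siCreb1 and 38.9, 36.2 and 37.8 in siCreb1 plus TVA libraries. All 3 siNTC libraries lay above the siNTC plus TVA and the siCreb1 plus TVA libraries, but siCreb1 overlapped siNTC, and the other groups overlapped each other. On the scale of log2(FPKM + 1), used for log2 fold changes here unless another fit is named and lowering the apparent change of weakly expressed genes, Nr1h2 differed with TVA by -0.14 (SE 0.05) in siNTC cells and by -0.05 (SE 0.05) in siCreb1 cells. Neither value passed the threshold over all genes.

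Nr1h3 encodes LXRα, the form abundant in liver and macrophages. It was at 0.697, 0.366 and 0.614 FPKM in siNTC, 0.581, 0.597 and 0.723 in siNTC plus TVA, 0.685, 0.552 and 0.917 in siCreb1 and 0.381, 0.318 and 0.792 in siCreb1 plus TVA libraries. These values rest on 16 to 51 reads a library, and all 4 groups overlapped. In a fit of all genes above 0, which takes in Nr1h3, TVA-treated siNTC cells differed by 0.07 and TVA-treated siCreb1 cells by -0.21 on the log2 scale (SE 0.14 each). The limma-voom fit of genes with at least 10 reads in 3 libraries gave 0.22 (SE 0.37) and -0.62 (SE 0.34). Neither fit called a difference. Nr1h2 exceeded Nr1h3 by 44.7 to 117 times within a library. The annotated gene of Nr1h3 overlaps Gm23390 on the opposite strand and Gm13783 on its own, and whether the counting used strand is not given in the sources used here, so reads of these genes cannot be told apart.

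Abcg1 (chr17:31057698-31115777, GRCm38) encodes a transporter that moves cholesterol to high-density lipoprotein. It was at 26.7, 23.8 and 22 FPKM in siNTC libraries and at 14.6, 16.0 and 15.2 FPKM in siNTC plus TVA libraries. In siCreb1 libraries it was at 25.2, 25.4 and 27.2 FPKM, and in siCreb1 plus TVA libraries at 17.3, 15.6 and 16.4 FPKM. All 6 libraries without TVA were above all 6 with it, and within either treatment the siNTC and siCreb1 libraries overlapped.

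The TVA means of Abcg1 were 63.2% of the reference mean in siNTC cells and 63.5% in siCreb1 cells, log2 fold changes of -0.62 (SE 0.07) in both. The difference between these effects was 0.0005 with an SE of 0.09. Knockdown went with 0.10 (SE 0.07) without TVA and 0.10 (SE 0.07) with it. The counts behind these values were 1085 to 2443 reads a library, and the only other gene annotated within Abcg1 is Gm25447 on the same strand.

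**Figure D1:**
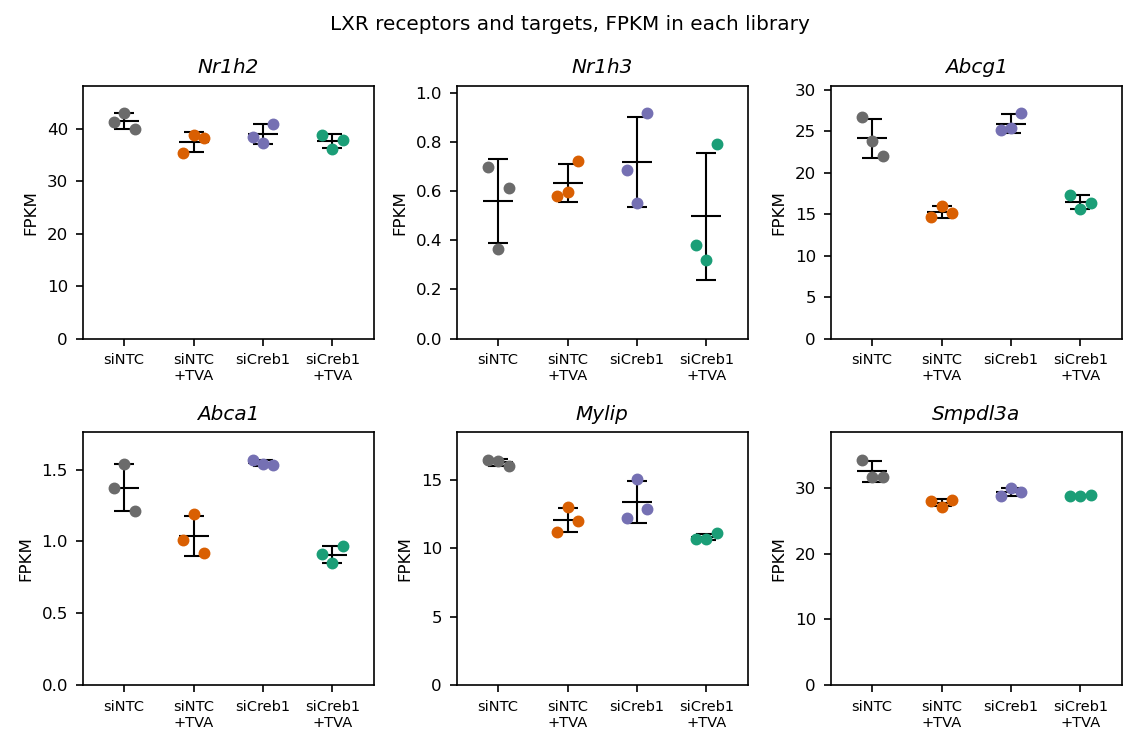
FPKM (vertical axes, from 0) of the 6 genes in each of the 12 libraries, by group on the horizontal axis; points are libraries and bars the mean ± SD of 3. Abcg1 lies between 22 and 27.2 FPKM in the 6 libraries without TVA and between 14.6 and 17.3 in the 6 with it, whereas the groups of Nr1h3 overlap.

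Abca1, the transporter that loads cholesterol and phospholipid onto apolipoprotein A-I, was expressed at a low level. It was at 1.37, 1.54 and 1.21 FPKM in siNTC, 1.01, 1.19 and 0.916 in siNTC plus TVA, 1.57, 1.54 and 1.53 in siCreb1 and 0.909, 0.848 and 0.965 in siCreb1 plus TVA libraries. Again every library without TVA was above every library with it, by a narrow margin in siNTC cells, on 193 to 356 reads a library. TVA means were 75.7% of the reference mean in siNTC cells and 58.7% in siCreb1 cells, the latter the lowest share among the 5 genes, but at -0.22 (SE 0.08) and -0.42 (SE 0.08) on the log2(FPKM + 1) scale neither comparison of Abca1 passed the threshold over all genes. By limma-voom on recovered reads the values were larger, -0.39 and -0.76, and both passed. Because Abca1 was selected on these values, neither outcome is read as a test.

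Mylip, the ubiquitin ligase, was at 16.5, 16.4 and 16.0 FPKM in siNTC, 11.2, 13.0 and 12 in siNTC plus TVA, 12.2, 15.1 and 12.9 in siCreb1 and 10.7, 10.7 and 11.1 in siCreb1 plus TVA libraries. The siNTC libraries stood above all others, the siCreb1 plus TVA libraries below all others, and the intermediate groups overlapped each other. The log2 fold change with TVA was -0.41 (SE 0.07) in siNTC cells and -0.28 (SE 0.07) in siCreb1 cells, and that with knockdown -0.27 (SE 0.07) without TVA and -0.14 (SE 0.07) with it. Those with TVA in siCreb1 cells and with knockdown in TVA-treated cells did not pass the threshold over all genes, and that with knockdown without TVA did not pass in 7 of 22 alternative fits.

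Smpdl3a showed a different layout. It was at 34.3, 31.6 and 31.6 FPKM in siNTC, 28.0, 27.1 and 28.2 in siNTC plus TVA, 28.8, 30 and 29.3 in siCreb1 and 28.7, 28.8 and 28.9 in siCreb1 plus TVA libraries. The 3 siNTC libraries were the highest of the 12, the siCreb1 groups overlapped, and siNTC plus TVA lay lowest. With TVA its mean was 85.4% of the reference mean in siNTC cells and 97.9% in siCreb1 cells, log2 fold changes of -0.22 (SE 0.03) and -0.03 (SE 0.03), and the difference between the effects was 0.19 (SE 0.05), which did not pass the threshold over all genes. Knockdown went with -0.14 (SE 0.03) without TVA and 0.05 (SE 0.03) with it.

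**Figure D2:**
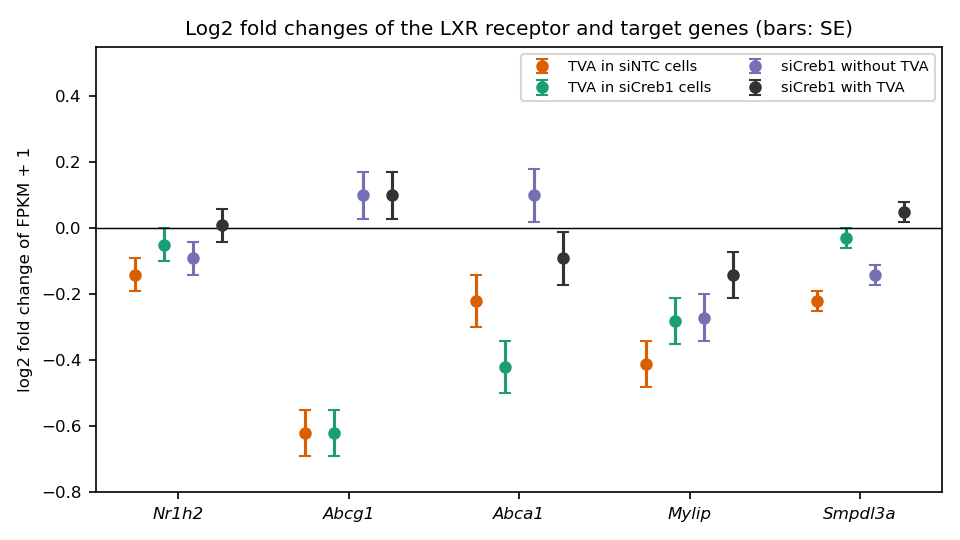
Log2 fold changes of FPKM + 1 (vertical axis) of the 5 genes in the fit, with bars of 1 SE, for TVA in siNTC cells, TVA in siCreb1 cells, and siCreb1 against siNTC without and with TVA. Abcg1 lies at -0.62 under TVA in both kinds of cell and at 0.10 under knockdown in both treatments, while Smpdl3a lies at -0.22 under TVA in siNTC cells and at -0.03 in siCreb1 cells.

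Set beside the whole transcriptome, limma with Benjamini-Hochberg adjustment at 0.05 called 519 genes higher (4.49%) and 333 lower (2.88%) with TVA in siNTC cells, and 3 of the 5 genes, Abcg1, Mylip and Smpdl3a, were among those called lower. In siCreb1 cells TVA called 14 genes higher (0.121%) and 48 lower (0.416%), with Abcg1 among the latter as 1 of 5. Knockdown without TVA called 753 genes higher (6.52%) and 833 lower (7.21%), with Mylip and Smpdl3a lower, 2 of 5, calls that were lost in 7 and 6 of 22 alternative fits. Knockdown with TVA called 536 higher (4.64%) and 636 lower (5.51%), and the test of the difference between the TVA effects called 53 higher (0.459%) and 206 lower (1.78%), with 0 of the 5 genes in either by limma (at an unadjusted p under 0.05 there were 3029 and 1657 genes in all). The balance of directions differs between fits for some comparisons. By TPM the calls higher and lower were 402 and 154 with TVA in siNTC cells, 8 and 29 in siCreb1 cells, 908 and 297 for knockdown without TVA, 620 and 120 with it, and 19 and 133 for the difference. By quantile normalization knockdown with TVA gave 595 higher and 335 lower. Groups that did not overlap, with TVA lower, held 5 of the 5 genes in siNTC cells beside 12.2% of genes tested, and 3 of the 5 in siCreb1 cells beside 9.01%. Because FPKM across these groups chose the genes, nothing is read from these counts. The comparisons of TVA in siNTC cells and of knockdown without TVA share the siNTC libraries, those of TVA in siCreb1 cells and of knockdown without TVA share the siCreb1 libraries, and both comparisons with knockdown share a group with each comparison of TVA.

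Markers of several cell types differed with knockdown, and some ranges differed with TVA. With TVA in siNTC cells Ly6c2 (0.16, SE 0.05), Eomes (0.10, SE 0.03) and Cd8a (0.02, SE 0.02) were higher without overlap. Zap70 (-0.15, SE 0.04) was lower without overlap, beside 12.2% of all genes tested, and none of these passed. In siCreb1 cells Pf4 (0.18), Lyz2 (0.37), Cd8a (0.02) and the NK cell gene Ncr1 (0.44) were higher with TVA without overlap. The NK cell gene Klra8 (-0.27) was lower without overlap, beside 9.01% of all genes tested, and none of these passed. The share of all genes with a higher range without overlap was not counted, so nothing is read from these ranges. Of the 8 CD8 T cell markers, knockdown without TVA lowered Cd8b1 (-0.16), Cd3d (-0.15), Cd247 (-0.15), Cd3g (-0.13) and Lck (-0.10) and raised Cd8a (0.09) by limma. In TVA-treated cells it lowered Cd8b1 (-0.14), Cd3d (-0.13) and Cd247 (-0.13) and raised Cd8a (0.09) by limma. Of all genes tested, knockdown lowered 7.21% and raised 6.52% without TVA, and lowered 5.51% and raised 4.64% with it. Of 8 erythroid and platelet markers the 2 at a mean of at least 1 FPKM were the platelet chemokine genes Ppbp and Pf4, and Hba-a2 and Hbb-bs were at 0 in every library. The summed list ran from 151 to 158 FPKM in siNTC, 145 to 149 in siNTC plus TVA, 91.9 to 97.1 in siCreb1 and 112 to 119 in siCreb1 plus TVA libraries. Ppbp fell by 0.79 (SE 0.06) on the log2 scale with knockdown without TVA (limma adjusted p = 2.94e-05) and Pf4 by 0.62 (SE 0.05, limma adjusted p = 5.5e-05), each lower in 3 of 3 libraries. With TVA present, knockdown lowered Ppbp by 0.33 (SE 0.06; limma adjusted p = 0.00677) and Pf4 by 0.38 (SE 0.05; limma adjusted p = 0.00181). Ppbp also rose with TVA in siCreb1 cells, by 0.36 (SE 0.06; limma adjusted p = 0.0195). The part of these shifts in marker RNA in the values of the 6 genes was not tested.

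A wider list of LXR targets, other than the 6 genes, held 27 genes of which 13 passed the filter. The pathway lists were chosen with earlier results of these data known, so their counts are a description and support no test. With TVA in siNTC cells 4 of the 13 fell, beside 2.88% of all genes tested, 0 rose and 9 did not pass. The median log2 fold change was -0.06 against -0.006 over all genes tested. The 4 were the lipid synthesis genes Srebf1, which encodes the SREBP1 transcription factor, the fatty acid synthase gene Fasn and the desaturase genes Scd1 and Scd2. In siCreb1 cells 3 fell (Fasn, Scd1 and Scd2), beside 0.416% of all genes tested. There 0 rose and 10 did not pass, with a median of -0.15 against -0.001.

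Scd2 was at 127, 119.5 and 120.4 FPKM in siNTC, 80.4, 78.6 and 80.2 in siNTC plus TVA, 156, 151 and 155 in siCreb1 and 84.1, 85.6 and 81.7 in siCreb1 plus TVA libraries. The siCreb1 libraries were the highest and the TVA libraries of both kinds the lowest, with no overlap between treatments. Scd2 fell by 0.61 (SE 0.03; limma adjusted p = 7.54e-07) in siNTC cells and by 0.87 (SE 0.03; limma adjusted p = 6.85e-08) in siCreb1 cells on the log2 scale. Srebf1 fell in siNTC cells, from 37.7 ± 2.24 to 31.8 ± 1.37 FPKM (mean ± SD, n = 3 each; log2 fold change -0.23, SE 0.04; limma adjusted p = 0.00674), and was at 37.5 ± 0.783 and 32.2 ± 0.392 FPKM in siCreb1 cells, a log2 fold change of -0.21 (SE 0.04) that did not pass.

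The small GTPase gene Arl4c was the most abundant of these LXR targets and had log2 fold changes with TVA of -0.06 (SE 0.02) in siNTC cells and -0.01 (SE 0.02) in siCreb1 cells. Lpcat3, which remodels membrane phospholipids, had -0.08 and -0.09 (SE 0.05 each), the desaturase gene Fads1 0.03 and -0.10 (SE 0.07 each), and the elongase gene Elovl6 0.05 and -0.06 (SE 0.05 each). None of these 4 passed in a comparison. Knockdown without TVA raised 4 of the 13, beside 6.52% of all genes, and lowered 0. The 4 were Acaca, Fads2, Fasn and Scd2, all in fatty acid synthesis, and the median was 0.11 against -0.001. With TVA present, knockdown raised 0 and lowered 2, Pltp and Elovl5, beside 5.51% of all genes lowered. The median was then 0.01 against -0.012.

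The RXR partners and coregulators of LXR were mostly not called with TVA. Of 20 listed 18 were tested. In siNTC cells 1 rose, beside 4.49% of all genes, and 0 fell. The gene that rose was Tbl1xr1, a corepressor exchange factor (0.12, SE 0.03, limma adjusted p = 0.0495). The median was -0.03 against -0.006, with 14 of the 18 below 0 beside 52.3% of all genes. Most alternative fits did not keep the call of Tbl1xr1. Ppargc1b (-0.25, SE 0.07), Ncoa5 (-0.11, SE 0.04) and Ncoa3 (-0.07, SE 0.04) had lower ranges without overlap, beside 12.2% of all genes, Hdac3 (0.08, SE 0.04) had a higher range without overlap, and none of these 4 passed. In siCreb1 cells 0 were called in either direction by limma, with a median of -0.02 against -0.001. There Ncoa3 (-0.09, SE 0.04), Med1 (-0.07, SE 0.03) and Crebbp (-0.07, SE 0.04) had lower ranges without overlap, beside 9.01% of all genes. Ppargc1b (0.07, SE 0.07) had a higher range without overlap. For that direction the share of all genes was not counted in either kind of cell. Rxrb, the most abundant RXR at a mean of 36.3 FPKM, had -0.05 (SE 0.04) in both kinds of cell, the corepressor Ncor1 -0.00 and 0.00 (SE 0.03 each), and Gps2, part of the corepressor complex, -0.00 in both (SE 0.05 each). Knockdown raised Med1, a Mediator subunit, without TVA (0.17, SE 0.03, limma adjusted p = 0.00542) and with it (0.12, SE 0.03, limma adjusted p = 0.0316). Together with Med1, it raised Tbl1xr1 without TVA and Ppargc1b with TVA. Of all genes, 6.52% rose with knockdown without TVA and 4.64% with it.

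Several enzymes that make or clear oxysterols were expressed at a low level. Cyp39a1 had a mean of 0.991 FPKM, just under the filter, Sult2b1 had 0.484, and Cyp46a1, Cyp27a1 and Ch25h had means of 0.105, 0.0173 and 0.0087 FPKM. Their differences were not tested in the fit across 11550 genes, whose filter they did not pass, and those of other fits are not given here.

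Genes of sterol storage and transport inside the cell, 16 tested of 17, were mostly not called. With TVA in siNTC cells 2 fell, beside 2.88% of all genes, and the list median was -0.06. The 2 were Gramd1a, an ER-anchored cholesterol carrier gene, and Osbpl5, an oxysterol-binding protein-like gene. Their log2 fold changes were -0.23 (SE 0.04) and -0.28 (SE 0.05), each with limma adjusted p = 0.00926. In siCreb1 cells 1 fell, Stard4, beside 0.416% of all genes, with a median of 0.04. The lysosomal lipase gene Lipa had -0.09 and 0.09 (SE 0.05 each), and Scp2, Osbp and Stard3 did not pass in a comparison either. Knockdown without TVA raised Soat2, which esterifies cholesterol, beside 6.52% of all genes. It lowered Npc2, Osbpl5 and Osbpl2, beside 7.21% of all genes, and the list median was -0.05. With TVA present, knockdown raised Gramd1a, Soat2 and Gramd1b, beside 4.64% of all genes. It lowered Npc2 and Stard4, beside 5.51%, and the list median was 0.05. Of 16 other ABCA and ABCG transporters 4 were tested, and with TVA 0 were called by limma in siNTC or siCreb1 cells, with medians of -0.05 and 0.08. Abca7 had -0.12 and 0.08 (SE 0.04 each), Abca3 -0.07 and 0.02 (SE 0.05 each) and Abcg3 -0.03 and 0.09 (SE 0.04 each), and Abca2 rose with knockdown in TVA-treated cells (0.14, SE 0.04; limma adjusted p = 0.0402).

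SREBP2 targets answer to sterol in the opposite sense to LXR targets. Of 24 tested, 13 fell with TVA in siNTC cells and 14 in siCreb1 cells, beside 2.88% and 0.416% of all genes, and 0 rose in either. The medians were -0.17 and -0.31 against -0.006 and -0.001 over all genes. Hmgcs1, which commits acetyl groups to cholesterol synthesis, fell by 0.23 (SE 0.03; limma adjusted p = 0.000694) in siNTC and by 0.44 (SE 0.03; limma adjusted p = 5.39e-05) in siCreb1 cells, while Ebp had -0.01 and 0.02 (SE 0.04 each). Others that fell in both kinds of cell include Cyp51, Mvd, Sqle, Msmo1, Lss, Insig1 and Dhcr7, while Srebf2 and Mvk passed in siNTC cells and Fdft1, Nsdhl and Idi1 in siCreb1 cells. For none of these 5 did the difference between the TVA effects pass, and Srebf2 (-0.15 and -0.14) and Mvk (-0.33 and -0.36) had similar values in both kinds of cell. Knockdown without TVA raised 4, among them Lss, Dhcr7 and Hmgcs1, beside 6.52% of all genes, and lowered 0, with a median of 0.09. With TVA present, knockdown raised Dhcr7 and lowered Cyp51, beside 4.64% and 5.51% of all genes, with a median of -0.04. The PPAR list holds lipid-sensing receptors that also pair with RXR, and their targets. Like the SREBP2 list, it was chosen with earlier results known, so the shares beside it are a description. Of 9 tested, 4 targets of fatty acid oxidation and lipid droplets rose with TVA in siNTC cells (Acadvl, Cpt1a, Slc25a20 and Hilpda) and 3 in siCreb1 cells. Of all genes, 4.49% and 0.121% rose. Among the 9, 0 fell and 5 and 6 did not pass, and the medians were 0.30 and 0.32 against -0.006 and -0.001. The receptor gene Ppard had -0.06 and -0.02 (SE 0.08 each), and Hilpda fell with knockdown in TVA-treated cells (limma adjusted p = 0.0414).

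**Figure D3:**
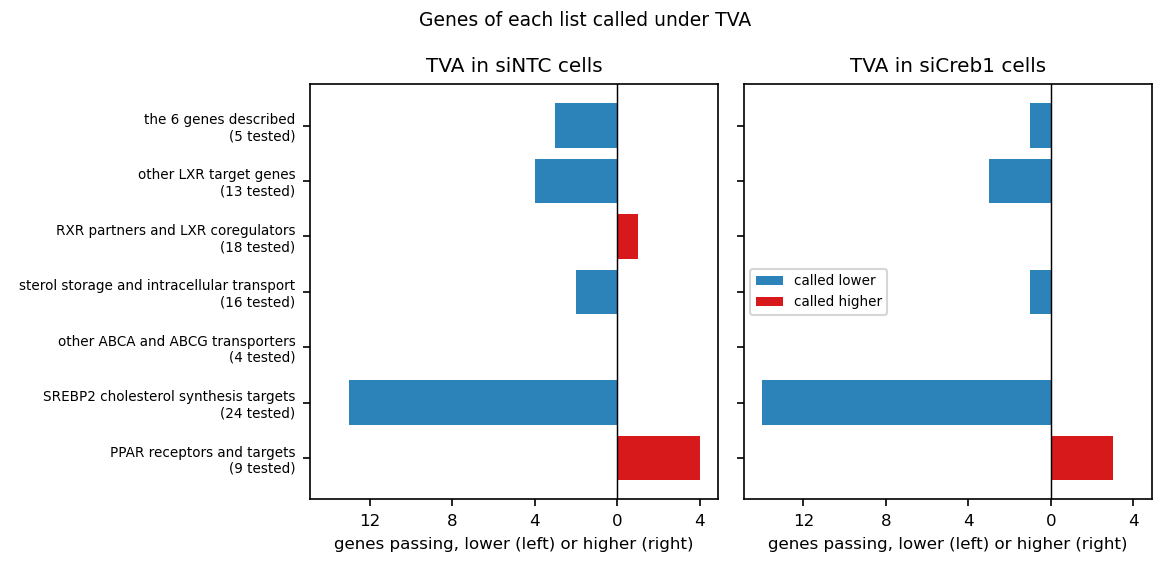
Number of genes of 6 pathway lists and of the 6 genes described that passed (horizontal axis, lower to the left and higher to the right) with TVA in siNTC cells and in siCreb1 cells, with the number tested beside each list name. The bars to the left are longest for the SREBP2 targets, 13 of 24 and 14 of 24, and the bars to the right for the PPAR genes, 4 and 3 of 9. Of all genes tested, 2.88% and 0.416% were called lower and 4.49% and 0.121% higher. The lists were chosen with earlier results of these data known, so the counts are a description.

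**Figure D4:**
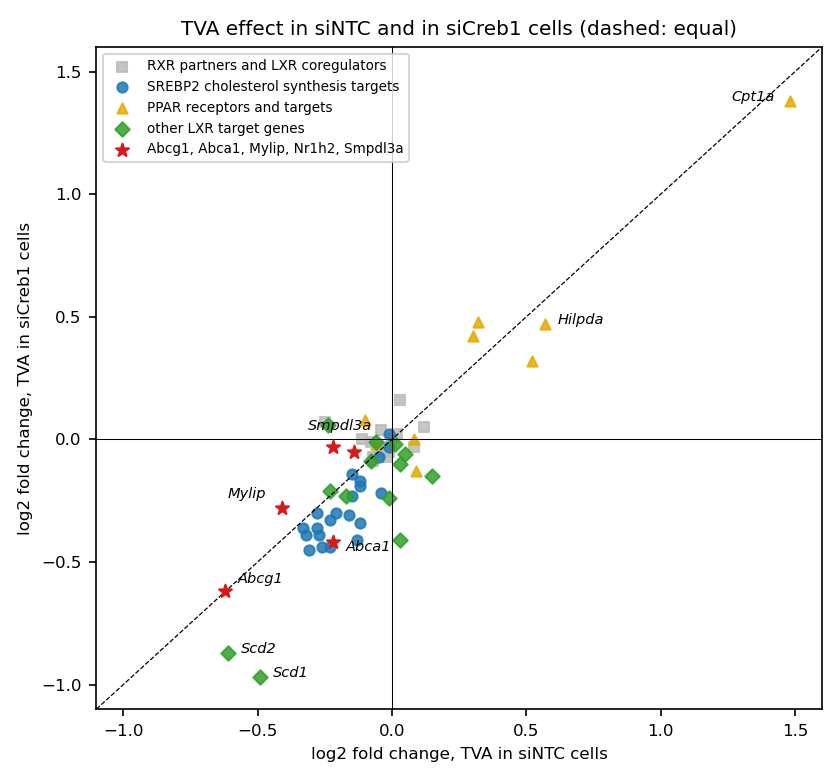
Log2 fold change of FPKM + 1 with TVA in siNTC cells (horizontal axis) and in siCreb1 cells (vertical axis) for genes of 4 lists and for the 5 genes; the dashed line marks equal effects. Abcg1 lies on the line at -0.62, Scd2 lies below it at -0.61 and -0.87, and Cpt1a is at the upper right at 1.48 and 1.38.

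The difference between the TVA effect in siCreb1 and in siNTC cells passed for 3 of the listed pathway genes. It was -0.26 (SE 0.04; limma adjusted p = 0.00793) for Scd2 and -0.21 (SE 0.04; limma adjusted p = 0.0212) for Hmgcs1, both falling further in siCreb1 cells, and 0.44 (SE 0.08; limma adjusted p = 0.0134) for Osbpl5. Under TPM scaling the calls of Scd2 and Hmgcs1 were lost (limma adjusted p = 0.0789 and 0.096), at differences of about the same size. That of Hmgcs1 was also lost without some single libraries. Osbpl5 was at 8.68, 8.06 and 9.51 FPKM in siNTC, 6.94, 6.75 and 7.31 in siNTC plus TVA, 6.72, 7.29 and 7.07 in siCreb1 and 7.95, 8.02 and 7.84 in siCreb1 plus TVA libraries. It was thus lower with TVA in siNTC cells and higher with TVA in siCreb1 cells, with no overlap in either, although TVA in siCreb1 cells did not pass by itself.

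Likeness to Abcg1 was measured by Pearson's r of log2(FPKM + 1) over the 12 libraries, for 11549 other genes, as a description. Among the 5 highest were Scd2 (r = 0.96), the squalene epoxidase gene Sqle (0.95), Fasn (0.946) and the acyl-CoA synthetase gene Acsl3 (0.945). The 5 lowest were Cpt1a (-0.961), the transcription factor gene Klf11 (-0.959), the carnitine carrier gene Slc25a20 (-0.947), the lipid droplet gene Hilpda (-0.943) and Rhob (-0.937). In all, 16 genes were above 0.9 and 6 below -0.9. Abca1 ranked 18th with r = 0.898, ahead of Mylip (0.711), Smpdl3a (0.683) and Nr1h2 (0.658).

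Acsl3 was at 7.81, 6.86 and 6.90 FPKM in siNTC, 5.39, 5.30 and 5.57 in siNTC plus TVA, 6.51, 7.64 and 8.19 in siCreb1 and 5.42, 5.04 and 5.5 in siCreb1 plus TVA libraries. Klf11, at the other end, was at 1.19, 1.31 and 1.38, then 4.31, 3.85 and 4.00, then 1.75, 1.39 and 1.5, and then 3.12, 3.49 and 3.06 FPKM in the same order of groups. Both separated the 6 TVA libraries from the 6 others, in opposite directions. After the group means were subtracted, r with Abcg1 was 0.661 for Fasn, 0.627 for Acsl3, -0.662 for Klf11 and -0.638 for Slc25a20. It was 0.407 for Sqle, 0.363 for Scd2, -0.007 for Cpt1a, 0.076 for Hilpda and 0.235 for Rhob. By this measure 0 of the 5 highest and 0 of the 5 lowest genes were among the 5 most extreme. By Spearman's rho 1 of each 5 was.

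**Figure D5:**
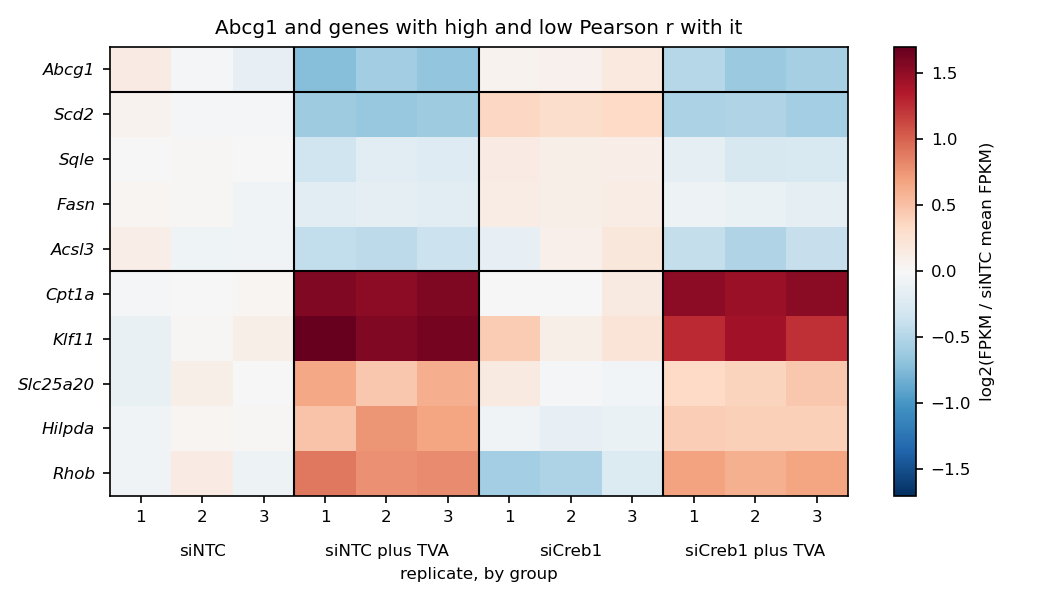
Log2 of FPKM over the siNTC mean (colour) in each library (columns, by group) for Abcg1, 4 of the 5 genes with the highest Pearson r with it and the 5 with the lowest (genes on the vertical axis). Abcg1 and the 4 below it are lower in all 6 TVA libraries than in the 6 others, and the 5 lowest genes are higher in all 6.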

How the data were processed

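Total RNA of 12 samples was sequenced by the authors. The deposited files give FPKM per gene, 1 file a library; the authors made them on GRCm38 (mm10) per the submitters' processing notes, and the aligner, the counting tool and the use of strand are not given in the sources used here. FPKM times gene length came out as whole multiples of 1 step per library for at least 99.995% of genes above 0 (tolerance 0.1 read), which gave the reads per library used for depth and for an alternative test.

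Groups followed the sample titles. Genes with a mean of at least 1 FPKM (11550) were fitted on log2(FPKM + 1) with limma 3.58.1 in R 4.3.3, with 1 coefficient per group. The fit used empirical Bayes with a mean-variance trend, and Benjamini-Hochberg adjustment at 0.05 over all genes tested. This limma fit was first run on simulated data, which did not cover the other steps. Comparisons were TVA in siNTC and in siCreb1 cells, siCreb1 against siNTC without and with TVA, and the difference between the TVA effects. A permutation test of 3 against 3 libraries cannot go below p = 0.1, so single comparisons rest on limma. Promoters and motifs were searched in Python 3.11.15, and plots were drawn with matplotlib 3.10.9.

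The 6 genes, the 8 pathway lists and the 7 marker lists were chosen with earlier results of these data known. Named are the 6 genes, Creb1, list genes that pass in a comparison (at most 30 each), up to 4 abundant genes of each list that do not, the 5 genes at each end of the correlation with Abcg1, and the most abundant markers. Markers that pass were added after the results were seen, and Csf1r, Adgre1, Cd68, Lyz2 and the oxysterol enzymes were named for their low level after it was seen. Some genes and lists that this rule covers are not reported here. Alternatives were a pseudocount of 0.1, other filters, quantile normalization, TPM, a replicate block, no trend, limma-voom on recovered reads, only the libraries compared, and each library left out.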

Additional observations from a re-analysis of the deposited data

Results flagged for a closer look

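The effect of TVA differed between siCreb1 and siNTC cells, by the test of that difference over all genes with limma, for 4 of the genes named. The log2 difference was -0.26 for Scd2 and -0.21 for Hmgcs1, which fell in both kinds of cell and further in siCreb1 cells. It was 0.44 for Osbpl5, which fell with TVA in siNTC cells and did not pass in siCreb1 cells. It was 0.47 for the platelet gene Ppbp, which ran from 77.7 to 88.6 FPKM in siNTC, 73.5 to 80.2 in siNTC plus TVA, 46.4 to 49.6 in siCreb1 and 57.6 to 64.8 in siCreb1 plus TVA libraries. Under TPM scaling the difference was -0.25 for Scd2 and -0.21 for Hmgcs1 and neither passed (limma adjusted p = 0.0789 and 0.096). That of Hmgcs1 was also lost in a fit with no mean-variance trend (limma adjusted p = 0.0508), and without siNTC plus TVA replicate 1 or 2, siCreb1 replicate 1 or 3, or siCreb1 plus TVA replicate 2 or 3, at values of -0.20 to -0.21.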

How the results depend on the processing

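Over 22 alternatives the log2 fold change of Abcg1 with TVA, given as a description of a selected gene, ran from -0.69 to -0.55 in siNTC cells and from -0.66 to -0.59 in siCreb1 cells, and Creb1 fell with knockdown in all 22, from -2.9 to -2.2 without and from -2.92 to -2.22 with TVA. The difference between the TVA effects on Abcg1 was -0.0011 with quantile normalization and from -0.07 to 0.06 with each library left out. Of 2383 alternatives for 109 gene values that passed, 1972 passed too, 411 did not and 0 changed direction. Abca1 passed with TVA on recovered reads by limma-voom, at -0.39 in siNTC and -0.76 in siCreb1 cells, and without a trend in siCreb1 cells; Mylip with TVA in siCreb1 cells passed by limma-voom at -0.30. Mylip under knockdown without TVA did not pass in 7 of 22, among them without any siNTC library (-0.28 to -0.26), siCreb1 replicate 1 (-0.21) or siCreb1 replicate 3 (-0.24), and Smpdl3a in 6 of 22, among them TPM (-0.10) and without siCreb1 replicate 1 (-0.13) or 3 (-0.14).

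With TVA in siNTC cells, 852 genes passed, against 563 with all genes above 0, 556 with TPM, 368 with only the libraries compared (fewer samples) and 558 to 767 with each library left out, lowest without siNTC plus TVA replicate 2. In siCreb1 cells 62 passed, against 37 with TPM, 157 and 152 with limma-voom on the same genes and on genes with at least 10 reads in 3 libraries, 39 with only the libraries compared, and 30 to 67 with each library left out; it was 33 and 30 without siCreb1 replicates 1 and 2, and 35, 35 and 31 without siCreb1 plus TVA replicates 1, 2 and 3. Knockdown without TVA gave 1586, against 992 with all genes above 0, 817 with only the libraries compared and 1020 to 1532 with each library left out (1020 and 1054 without siCreb1 replicates 1 and 2). Knockdown with TVA gave 1172, against 683 with all genes above 0, 740 with TPM and 599 to 1245 with each library left out; without siNTC plus TVA replicates 1, 2 and 3 it was 757, 655 and 752, and without siCreb1 plus TVA replicates 1, 2 and 3 it was 599, 601 and 669. The difference between TVA effects gave 259, against 152 with TPM, 446 and 427 with limma-voom and 168 to 237 with each library left out (172 without siNTC plus TVA replicate 2, 168 and 172 without siCreb1 replicates 1 and 2). Other causes were not tested.

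The share called higher moved in some fits. It was 60.9% with TVA in siNTC cells and 72.3% by TPM; 22.6% in siCreb1 cells, 21.6% by TPM, 29.3% by quantile normalization and 40.8% and 38.8% by limma-voom, which changes the scale, the weights and the input together; 47.5% for knockdown without TVA and 75.4% by TPM, 59.4% and 59.5% by limma-voom; and 45.7% for knockdown with TVA and 64.0% by quantile normalization, 83.8% by TPM, 59.3% and 59.8% by limma-voom.

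LXR targets other than the 6 genes that fell in siNTC cells numbered 1 in place of 4 with only the libraries compared, and in siCreb1 cells 6 in place of 3 with either limma-voom fit; SREBP2 targets in siNTC cells numbered 8 in place of 13 with only the libraries compared. DR4 was in 0.25% of promoter windows with at most 1 mismatch and 21.9% with at most 3. With a replicate block, genes passing with TVA in siCreb1 cells numbered 34 in place of 62 and the other counts stayed within 1.5 times. Deviations of same-numbered libraries correlated at -0.059 to 0.06, so no shared deviation was seen. Whether same-numbered libraries came from the same animal or culture cannot be told from these values. Nr1h3 rests on 16 to 51 reads, and with 3 libraries a group small differences may go uncalled.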
